A study of Homo sapiens with 3 samples.

Results

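A set of 10 genes for short structured non-coding RNAs was examined in GoldCLIP-seq peak lists of HCT116, an established human colorectal carcinoma cell line. The genes were RN7SL1 and RN7SL2 (7SL RNA), RMRP and RPPH1 (the RNase RNAs), RNY1, RNY3, RNY4 and RNY5 (Y RNAs), TERC (telomerase RNA) and VTRNA1-1 (a vault RNA). They were taken by name, as 10 of the 58998 genes that RefSeq places on the chromosomes of GRCh38. A gene was counted as holding a peak when the summit, the base of highest signal in the peak, lay within its bounds. GoldCLIP crosslinks protein to RNA and captures a HaloTag fusion covalently, so that washing can be denaturing. The series held 3 groups of 1 library each, all HCT116 cells in the same medium, with the genotype HaloTag, RPL22-HaloTag or RPL22L1-HaloTag. RPL22 belongs to the 60S subunit of the ribosome and RPL22L1 is its paralog. The question was which RNAs each of them binds. Cells with the tag alone were not analysed here, and no background level from them stands beside any value. The labels do not say whether a fusion line is 1 clone or how strongly it expresses the fusion.

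The RNAs belong to stable ribonucleoprotein particles and are made by RNA polymerase III, apart from TERC, which RNA polymerase II makes. 7SL RNA is the scaffold of the signal recognition particle, which docks translating ribosomes at the endoplasmic reticulum. RPPH1 is the RNA of RNase P, which trims the 5′ leader of tRNA precursors, and RMRP that of RNase MRP, which cuts the precursor of ribosomal RNA. Y RNAs bind the Ro60 and La proteins, TERC is the template RNA of telomerase, and vault RNAs are found partly in the vault particle.

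The RPL22 list, that of the RPL22-HaloTag library, held 154000 peaks and the RPL22L1 list 254413. Each peak carried a whole-number score given by the authors, whose scale is not stated, and it was used to rank peaks within a list only. The median peak width was 30 bases in both lists. Peaks 30 bases wide with the summit in the middle are called flat and all others shaped. Flat peaks made up 64.9% and 77.9% of the lists. The number of reads behind each list is unknown, so a gene without a peak cannot be called unbound. With 1 library per group there was no replicate and no test between groups.

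The RPL22 list had a summit in 6 of the 10 genes and the RPL22L1 list in 7 of 10. Among all genes the shares were 35.4% and 37.1%. Among the 9409 genes of at most 400 bases, a class that takes in 9 of the 10 members, they were 6.92% and 8.52%. Of these 9409 genes 5302 were pseudogenes, where the shares were 6.00% and 7.05%. None of these classes was matched to the members for expression, so the shares are no like-for-like background. RN7SL1, RN7SL2, RMRP, RPPH1 and VTRNA1-1 held a summit in both lists. TERC held one in the RPL22 list alone, and RNY1 and RNY4 in the RPL22L1 list alone. RNY3 and RNY5 held none in either list. Both lists had 7 peaks in these genes, 1 per gene except for 2 in RPPH1 in the RPL22 list. Of the 14 peaks 13 were shaped, and 1 was flat, that of RN7SL2 in the RPL22L1 list.

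**Figure D1:**
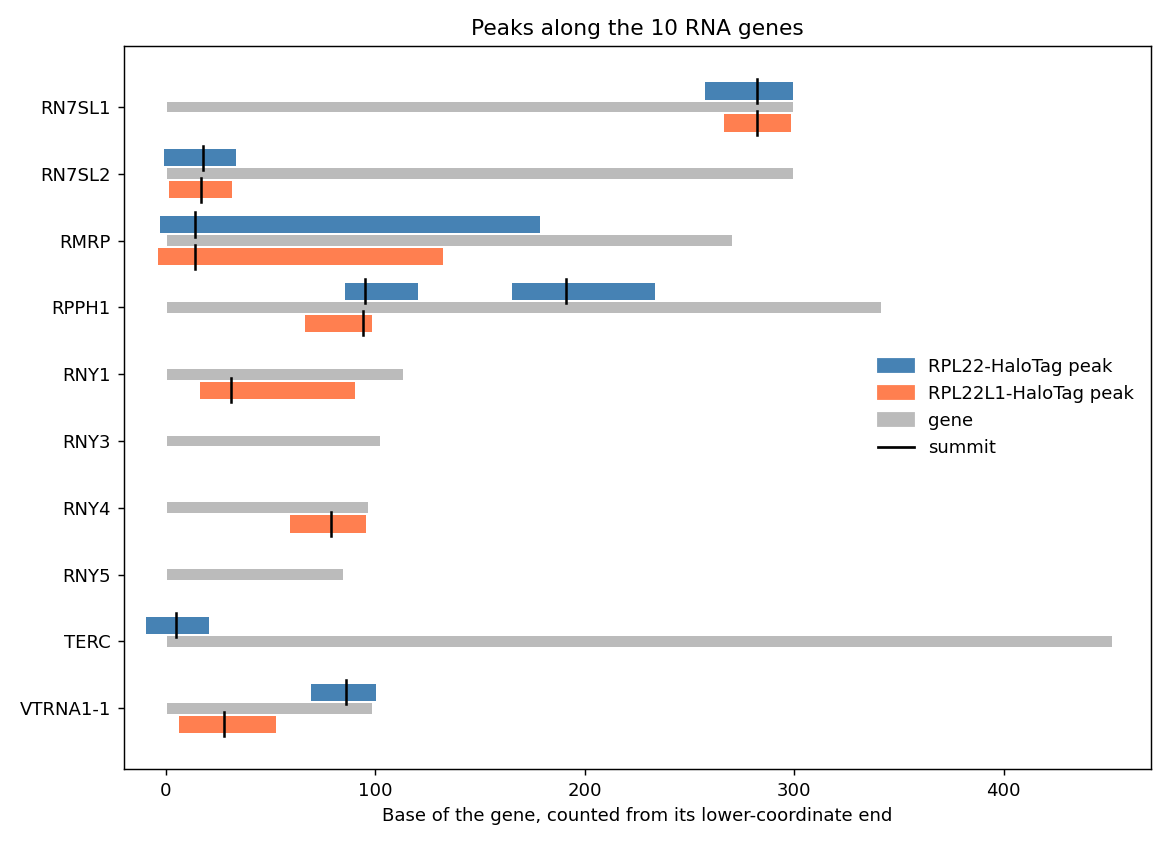
Peaks along the 10 RNA genes. Each gene is a grey bar whose length is its number of bases, counted from the lower-coordinate end; blue bars are RPL22-HaloTag peaks, orange bars RPL22L1-HaloTag peaks and black ticks their summits. Summits of both lists fall within 1 base of each other in RN7SL1, RN7SL2, RMRP and RPPH1, while the peaks of VTRNA1-1 lie 17 bases apart.

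Most of these peaks ranked high in their own list. The highest peak of the gene lay within the top 1% of the list for 5 of the 6 members that the RPL22 list marked and for 6 of the 7 that the RPL22L1 list marked. RPPH1 was the exception in both. Among all genes of at most 400 bases with a summit, the shares were 38.6% and 36.9%. In the RPL22 list the order from the highest was RMRP, VTRNA1-1, RN7SL1, RN7SL2, TERC and RPPH1. In the RPL22L1 list it was RNY1, RNY4, VTRNA1-1, RMRP, RN7SL1, RN7SL2 and RPPH1. These orders are those of the authors' scores in 1 library each, and no spread over replicates stands behind them.

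**Figure D2:**
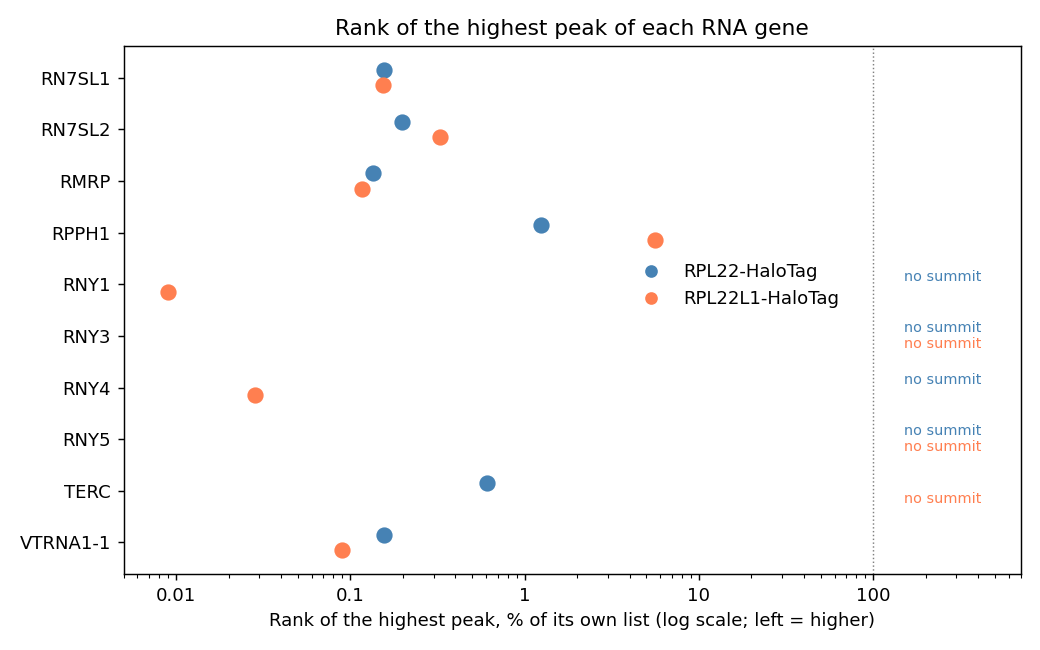
Rank of the highest peak of each RNA gene as a percentage of its own list, on a log axis, with higher-ranked peaks to the left; each point is 1 library and genes without a summit are marked as such. RNY1 and RNY4 stand at 0.00904% and 0.0283% of the RPL22L1 list and have no summit in the RPL22 list.

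7SL RNA was marked at 1 end of RN7SL1 and of RN7SL2. RN7SL1 (chromosome 14, 49586580 to 49586878, 299 bases) held an RPL22 peak at 49586837 to 49586878 with a score of 5469, rank 241, the top 0.156%. Its RPL22L1 peak at 49586846 to 49586877 scored 4505, rank 389, the top 0.153%. The summits fell on the same base, 49586861, which is base 282 of 299. All 32 bases of the RPL22L1 peak lay within the RPL22 peak, whose last base was the last base of the gene.

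RN7SL2 (chromosome 14, 49862551 to 49862849, 299 bases) held an RPL22 peak at 49862550 to 49862583, with a score of 3579 and rank 304. The RPL22L1 peak, at 49862552 to 49862581, scored 1739 and had rank 832, and all 30 of its bases lay within the RPL22 peak. Summits were at bases 18 and 17 from the lower-coordinate end, the mirror image of RN7SL1. The reference table used here gives no strand for these genes. As background from common annotation, RN7SL1 is read towards higher and RN7SL2 towards lower coordinates, so both sites are at the 3′ end, which pairs with the 5′ end in the Alu domain that SRP9 and SRP14 bind. The genes are nearly identical in sequence, so their peaks are not independent, and the handling of reads that match both is unknown. RN7SL1 lies within the bounds of RPS29 and RN7SL2 within those of LOC105378179.

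RMRP had the widest peaks of the set. The gene (chromosome 9, 35657750 to 35658019, 270 bases) held an RPL22 peak of 181 bases at 35657747 to 35657927, with a score of 7645 and rank 207. Its RPL22L1 peak of 136 bases at 35657746 to 35657881 scored 7071 and had rank 297. Peaks at least as wide numbered 57 in the whole RPL22 list and 855 in the RPL22L1 list. The summits fell on the same base, base 14 from the lower-coordinate end, and the peaks shared 135 bases. They began 3 and 4 bases outside the gene and covered 65.9% and 48.9% of it. The part that differed was the far side, where the RPL22L1 peak stopped 46 bases earlier.

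RPPH1, the other RNase RNA, carried lower-ranked and internal peaks. The gene (chromosome 14, 20343071 to 20343411, 341 bases) held an RPL22 peak at 20343156 to 20343190 with a score of 440, rank 1915, the top 1.24%. A further RPL22 peak, from 20343236 to 20343303, scored 139 and had rank 12683, the top 8.24%. The RPL22L1 peak, at 20343137 to 20343168, scored 401 and had rank 14265, the top 5.61%. Its summit was at base 94 and that of the higher RPL22 peak at base 95. The 2 peaks shared 13 bases, 37.1% of the RPL22 and 40.6% of the RPL22L1 peak, since they extended to opposite sides of the summit.

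The summits of the longer RNAs were set beside those of other genes of like length, with a limit of 20 bases from an end that was chosen after the positions were seen. Of 6 RPL22 summits in the 5 members of 200 to 500 bases, 4 lay within it, those of RN7SL1, RN7SL2, RMRP and TERC. In other genes of 200 to 500 bases 11.9% of 219 RPL22 summits did. In the RPL22L1 list 3 of 4 did, against 21.2% of 255 summits elsewhere. With a limit of 10 bases, 1 of 6 RPL22 summits lay within it, against 1.37% elsewhere, and 0 of 4 RPL22L1 summits, against 9.02% elsewhere. With a limit of 30 bases, 4 of 6 RPL22 summits lay within it, against 23.7% elsewhere, and 3 of 4 RPL22L1 summits, against 31.8% elsewhere. At 10 bases the 4 RPL22L1 summits are too few to place the members above or below the other genes. RN7SL1 and RN7SL2 share their sequence and count as 2 of the member summits within 20 bases in each list. The RPL22L1 peak of RN7SL2 was flat, so its summit is only the middle of a peak 30 bases wide. The other genes took in RN7SL copies of this length. Over all RN7SL copies, 0 of 19 RPL22 summits and 1 of 15 RPL22L1 summits lay within 30 bases of an end. Shares without these copies were not worked out.

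RNY1 and RNY4 gave the highest ranks of the set, in the RPL22L1 list, and held no RPL22 summit. A summit in 1 list alone was common among genes of at most 400 bases. Of these genes 651 held an RPL22 summit and 802 an RPL22L1 summit, while 353 held both. RNY1 (chromosome 7, 148987136 to 148987248, 113 bases) held an RPL22L1 peak of 74 bases at 148987152 to 148987225, with a score of 413209 and rank 23 of 254413. Of the 22 peaks above it 4 were on chrR, a sequence of unstated identity outside the assembly. The peak covered 65.5% of the gene, with the summit at base 31. RNY4 (148963315 to 148963410 of the same chromosome, 96 bases) held an RPL22L1 peak of 36 bases at 148963374 to 148963409, with a score of 72499 and rank 72. Its summit at base 79 was base 18 counted from the higher-coordinate end.

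The RPL22 list held no summit in either gene. Its nearest summit to RNY1 lay 16897 bases away, in PDIA4, and its nearest to RNY4 lay 34935 bases away, outside genes. RNY3 (148983755 to 148983856, 102 bases) lies 3310 bases from the RNY1 summit, and RNY5 (148941488 to 148941571, 84 bases) 21822 bases from that of RNY4. Neither held a summit in either list. No peak of either list was centred within 1000 bases outside the bounds of any of the 4 Y RNA genes. The 2 Y RNAs with peaks were thus marked without peaks in the sequence around them. This was not particular to Y RNAs, since it also held for RN7SL2, RMRP, RPPH1 and VTRNA1-1 in both lists. RN7SL1 and TERC each had 1 RPL22L1 summit, and no RPL22 summit, within 1000 bases outside their bounds.

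TERC (chromosome 3, 169764610 to 169765060, 451 bases) showed the opposite pattern. It held an RPL22 peak at 169764600 to 169764629, with a score of 743, rank 936, the top 0.608%. The summit was at base 5 from the lower-coordinate end, and the peak began 10 bases outside the gene. No RPL22L1 summit lay in the gene, and the nearest, 712 bases outside it, belonged to a flat peak with a score of 75. As background, TERC, RMRP and RPPH1 are read towards lower coordinates, which makes the lower-coordinate end the 3′ end. In TERC that end holds the box H/ACA domain, to which dyskerin binds.

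VTRNA1-1 was marked in both lists but at different places. The gene (chromosome 5, 140711276 to 140711373, 98 bases) held an RPL22 peak at 140711345 to 140711375 with a score of 5570, rank 239, the top 0.155%. Its summit at base 86 was base 13 counted from the higher-coordinate end. The RPL22L1 peak at 140711282 to 140711327 scored 10930, rank 228, the top 0.0896%, and its summit was at base 28. The summits were 58 bases apart and 17 bases separated the peaks. Of 353 genes of at most 400 bases with a summit in both lists, 96.0% had overlapping peaks. VTRNA1-1 was 1 of the 14 that did not, while the other 4 members with a summit in both lists had overlapping peaks.

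The sequence at the RPL22L1 site can be shown because the start of LOC105378198, a gene on the plus strand, coincides with that of VTRNA1-1. The RefSeq promoter window of LOC105378198 in GRCh38.p14 therefore ends with the first 50 bases of the vault RNA gene. Its last 100 bases, chr5:140711226-140711325 on the plus strand, are given 5′ to 3′ to show where the peak begins relative to the start of the gene. Capitals mark 44 of the 46 bases of the RPL22L1 peak, and the other 2 lie beyond the window:
VTRNA1-1 start: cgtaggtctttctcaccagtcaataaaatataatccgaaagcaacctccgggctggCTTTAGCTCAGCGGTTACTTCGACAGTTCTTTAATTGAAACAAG
The gene starts at base 51 of the stretch shown, so the peak opened at base 7 of the RNA. Of the capitals 38.6% are G or C. The RPL22 peak lies outside the window. The promoter table lists none of the 10 members under their own names, and no sequence is shown for the others.

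Other vault RNA genes were examined beside it. VTRNA2-1 (chromosome 5, 136080491 to 136080598) held an RPL22 peak at 136080496 to 136080537, with a score of 5396 and rank 244. The RPL22L1 peak there, at 136080497 to 136080539, scored 4362 and had rank 392. Their summits fell on the same base, base 21 from the lower-coordinate end, and they shared 41 bases. No strand is given for VTRNA2-1 here, so which end of the RNA this is was not determined. VTRNA1-3 (140726159 to 140726246 of the same chromosome, 88 bases) held an RPL22 peak of 109 bases at 140726196 to 140726304, with a score of 614 and rank 1189. Its summit lay within the gene, at base 52, but the peak ran past the higher-coordinate end, with much of it outside the gene. No RPL22L1 summit lay in VTRNA1-3. VTRNA1-2 held no summit in either list. Of the 5 relatives 2 held a summit in each list, with VTRNA3-1P as the further one in the RPL22L1 list, named after its value was seen.

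7SL and Y RNAs have many gene copies, most of them annotated as pseudogenes, and they differed between the families. Of 685 RN7SL copies the RPL22 list marked 19, or 2.77%, and the RPL22L1 list 15, or 2.19%. Among all pseudogenes of at most 400 bases the shares were 6.00% and 7.05%. When only the 154000 highest RPL22L1 peaks were used, to equal the RPL22 list in size, the counts were 19 and 9. None of these RN7SL peaks lay in the top 1% of its list, and 11 of 19 and 10 of 15 were flat. RN7SL3, a further gene annotated as a 7SL RNA and no pseudogene, was named after its values were seen. It held shaped peaks with scores of 32 and 234. Both had their summit at base 199, far from the sites of RN7SL1 and RN7SL2. RN7SL7P was the highest RN7SL copy in the RPL22 list, with a score of 451 and rank 1821.

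Copies of Y RNA genes held summits more often in the RPL22L1 list. Of 75 copies the RPL22 list marked 9, or 12%, and the RPL22L1 list 25, or 33.3%. With the lists made equal in size they were 9 and 17. For RNY1 copies the counts were 1 and 8 of 16, for RNY4 copies 5 and 12 of 33, for RNY3 copies 2 and 4 of 16, and for RNY5 copies 1 and 1 of 10. All but 1 and 2 of these peaks were shaped. A summit in both lists was found in 8 copies, and in all 8 the peaks overlapped. This was not particular to Y RNA copies. Peaks overlapped in 96.0% of the 353 genes of at most 400 bases with a summit in both lists, and in 4 of 4 such RN7SL copies.

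The highest copy in the RPL22L1 list was RNY1P13 on chromosome 1, with a score of 64854 and rank 79 at 114727788 to 114727823. It held no RPL22 summit. RNY1P7 followed, with a score of 4015 and rank 412, and also held none. RNY4P11, RNY3P2 and RNY3P16 came next, with ranks of 449, 504 and 560. These 3 were also the highest copies in the RPL22 list, where RNY3P16 had rank 320, RNY4P11 rank 434 and RNY3P2 rank 491. Their summits differed by 0, 1 and 2 bases between the lists in RNY3P16, RNY4P11 and RNY3P2. RNY4P8 held a peak at the same bases in both lists, 40243285 to 40243318 of chromosome 17, with ranks of 1579 and 1058. The RPL22 list marked Y RNA copies although it held no summit in the 4 Y RNA genes, and RNY3 copies were marked in both lists although RNY3 was not. Reads of near-identical copies can be divided or moved between them, and the part of this in the counts was not tested.

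**Figure D3:**
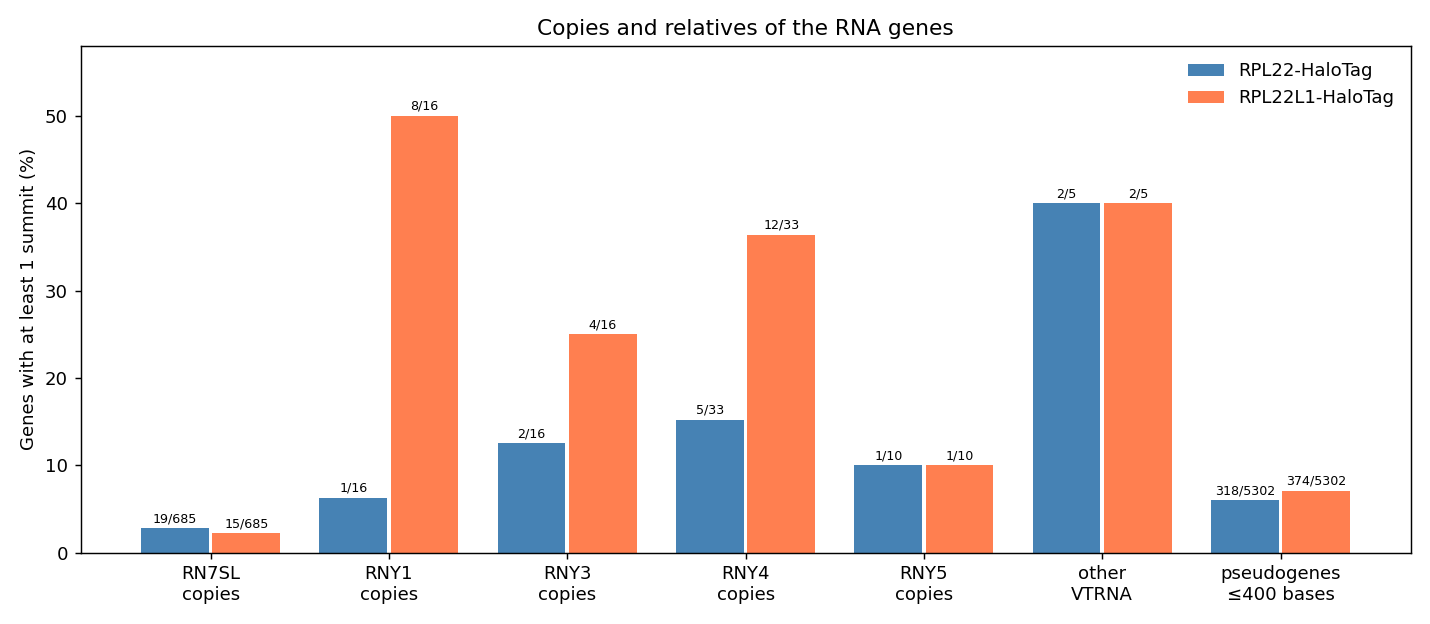
Share of copies and relatives of the RNA genes that held at least 1 summit, in percent, for the RPL22-HaloTag list (blue) and the RPL22L1-HaloTag list (orange), with numbers of genes above the bars; all pseudogenes of at most 400 bases are shown last. RNY1 copies reach 8 of 16 in the RPL22L1 list and 1 of 16 in the RPL22 list.

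Genes of 30 proteins of these particles or their assembly were examined as partners of the RNAs. Summits anywhere within the gene bounds counted, so introns and smaller genes inside them are included. The RPL22 list had a summit in 29 of 30 and the RPL22L1 list in 27 of 30, against 68.8% and 70.3% of all protein-coding genes. Expression was not matched in this comparison either. RPP21, an RNase P subunit, held none in either list. PUF60 and RPP25, named after their values were seen, held 3 RPL22 summits each and no RPL22L1 summit. The number of summits was higher in the RPL22L1 list in 18 genes and in the RPL22 list in 7, with lists of 254413 and 154000 peaks. Peaks of both lists overlapped in 22 of the 27 genes with summits in both. Neither the split of 18 against 7 nor this overlap was counted over all protein-coding genes. Both therefore describe the partner genes without showing that they differ from others.

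The highest-ranked gene was DKC1, which encodes dyskerin, with rank 80 among RPL22 peaks and rank 102 among RPL22L1 peaks. Both summits also lay within 2 smaller genes inside DKC1, SNORA36A, a box H/ACA snoRNA, and the microRNA gene MIR664B. Which of these RNAs the peaks belong to cannot be told apart from the lists. NAF1, an assembly factor of H/ACA particles, came next in both lists, with ranks of 722 and 1162 and summits 1 base apart. GAR1, a core H/ACA protein, had ranks of 3263 and 1877, and its summits were also 1 base apart. POP1, the largest subunit of RNase P and MRP, had ranks of 797 and 8517, and SRP54, the GTPase of the signal recognition particle, 2981 and 8885. For POP1 and SRP54 the ranks belong to different sites. The summits lay at bases 10355 and 38876 from the lower-coordinate end of POP1, and at bases 30868 and 16655 of SRP54.

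SRP72 and RO60 were among the 5 highest partner genes of the RPL22L1 list and not of the RPL22 list. SRP72, which joins SRP68 on the 7SL RNA, held 5 RPL22 and 38 RPL22L1 summits, with highest ranks of 5904 and 1386. RO60, the Y RNA-binding protein, held 6 and 37, with highest ranks of 8883 and 1545. Of these RPL22L1 summits 17 in SRP72 and 15 in RO60 were shaped, against 3 and 4 in the RPL22 list. The highest peaks of SRP72 and of RO60 did not overlap between the lists. All 6 genes of signal recognition particle proteins held summits in both lists, with medians of 5.5 RPL22 and 21.5 RPL22L1 summits per gene. Over all protein-coding genes the medians were 3 and 4. The medians were 3 and 5 for RNase P and MRP, 3 and 8 for telomerase, 3 and 10 for the Ro and La group, and 19 and 18 for the vault group. Genes of the signal recognition particle and vault groups were longer than usual, with median lengths of 34899 and 47835 bases against 24449 for all protein-coding genes. The other groups were shorter, with 6903 for RNase P and MRP, 13194 for Ro and La and 14826 for telomerase. The part of gene length in these counts was not tested.

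**Figure D4:**
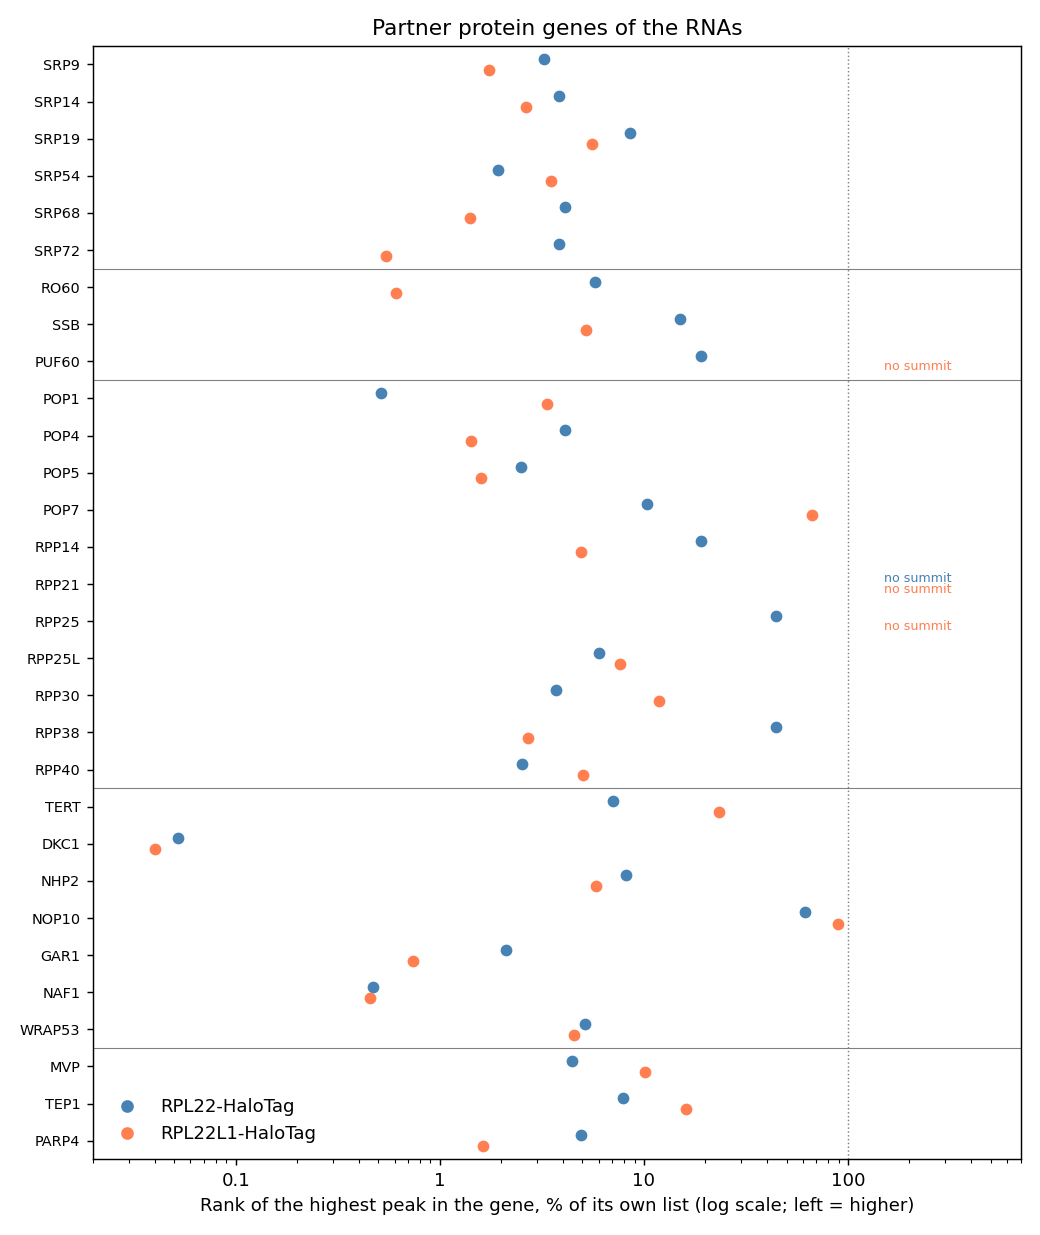
Rank of the highest peak in each of the 30 partner protein genes as a percentage of its own list, on a log axis, with higher-ranked peaks to the left; blue points are the RPL22-HaloTag and orange points the RPL22L1-HaloTag list, 1 library each, and horizontal lines separate the signal recognition particle, Ro and La, RNase P and MRP, telomerase and vault groups. DKC1 stands farthest left in both lists, with summits that also lie within SNORA36A and MIR664B, and RPP21 has no summit.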

How the data were processed

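One peak list per group was used, for RPL22-HaloTag and for RPL22L1-HaloTag cells. Per the submitters' processing notes the tools were cutadapt 4.8, STAR 2.7.10a, UMI-tools 1.1.5 and MACS3 3.0.0a6 with the build hg38. Their settings, the control of the peak calls and the placing of reads with several matches are not given in the sources used here. The deposited score is the authors' whole-number value per peak and has no stated scale. The lists carry no strand. Depth is unknown, so no interval on it could be given.

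A summit was column 2 plus column 10 plus 1, and positions are counted from 1. Ranks are by score, with ties sharing the better rank. Genes came from the RefSeq table of GRCh38.p14, without unplaced and alternate sequences. Peaks that shared at least 1 base counted as overlapping. The members and lists were chosen with earlier results of these data known. Named genes were the members, the vault RNA relatives, the 5 highest RN7SL or RNY copies per list, and the 5 highest partner genes per list with those lacking a summit. RN7SL3, VTRNA3-1P, PUF60 and RPP25 were named after their values were seen. Other partner counts cover whole groups. Python 3.11.15 with numpy 2.4.6, pandas 2.3.3 and matplotlib 3.10.9 was used. Counting was tested on simulated data, where 0 of 200 genes differed from a direct search.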

Additional observations from a re-analysis of the deposited data

How the results depend on the processing

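No paired analysis was possible because each group had 1 library, and for the same reason no replicate could be left out. Members with a summit stayed at 6 in the RPL22 list under every alternative run, and at 7 in the RPL22L1 list except for 6 without flat peaks, where RN7SL2 was lost. Members with overlapping peaks were 4, or 3 without flat peaks and with at least 50% of both peaks shared. All ranks stayed within 1.5-fold in the 77 comparisons run. Settings that drop low scores cannot remove high-ranked peaks, so these ranks say nothing about stability. Copies and relatives with a summit moved more, from 42 to 25 in the RPL22L1 list when peaks below the median score were dropped, and from 30 to 18 in the RPL22 list without flat peaks. The order of the lists, 30 against 42, turned to 30 against 28 in lists of equal size and to 26 against 25 at or above the median score. The split by family was added after seeing the data. Y RNA copies kept the order, with 9 against 25 in the full lists, 9 against 17 in lists of equal size, 9 against 15 at or above the median score and 8 against 23 without flat peaks. RN7SL copies were 19 against 15 in the full lists, 19 against 9 in lists of equal size, 15 against 8 at or above the median score and 8 against 5 without flat peaks. With a limit of 10 bases from an end, 1 of 6 RPL22 and 0 of 4 RPL22L1 summits of the longer members counted, in place of 4 and 3, against 1.37% and 9.02% of summits in other genes. The settings on copies keep fewer peaks by construction; otherwise the cause was not tested. In all, 124 of 133 alternative values stayed within 1.5-fold. The 77 rank comparisons are among these 124, so the total is no measure of stability.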
